A study of Mus musculus with 12 samples.

Results

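The clustered protocadherins are a family of cadherin-like adhesion proteins encoded by 3 neighbouring gene clusters, alpha, beta and gamma. In the nervous system each neuron transcribes its own combination of members, chosen through the promoters of their variable exons and looping by CTCF and cohesin. The proteins then bind the same members on other membranes, which lets a neuron tell its own processes from those of others. Alpha and gamma genes each splice 1 variable first exon, which encodes the cadherin repeats and the membrane span, to a common set of exons that encodes a shared cytoplasmic tail. Beta genes have a single coding exon and no shared tail. The C-type members of the alpha and gamma clusters, Pcdhac1, Pcdhac2, Pcdhgc3, Pcdhgc4 and Pcdhgc5, form a group of their own, several of which are transcribed broadly and not by random choice.

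The members described here are the 57 clustered protocadherin genes, 14 alpha, 21 beta and 22 gamma, that were found by symbol among 16716 genes listed for the YTHDF1 comparison. All 57 passed the filter on low counts. The count table holds 58 genes of the family. The remaining one, Pcdhb1, was not among the listed genes and stayed near the limit of detection, with raw counts of 6, 6 and 1 in Input, 7, 15 and 53 with YTHDF1, 2, 0 and 6 with YTHDF2, and 10, 9 and 6 with YTHDF3.

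The study asked which RNAs are bound by YTHDF1, YTHDF2 and YTHDF3, cytoplasmic reader proteins that recognise N6-methyladenosine (m6A), a methyl mark on adenosines of mRNA. In RNA immunoprecipitation (RIP), an antibody pulls down the protein and the RNA bound to it is sequenced. Primary hippocampal neurons of newborn C57BL/6 mice were lysed after 14 days in culture, and the groups were Input, a portion of the lysate taken before any antibody, and RIPs of endogenous YTHDF1, YTHDF2 and YTHDF3, with 3 libraries each. No gene was altered and no agent given to distinguish the groups. Hippocampi of a litter were pooled with both sexes mixed, an inhibitor of cell division (Ara-C) was used against glia, and pooled lysates were divided among the antibodies, so the libraries of a number may share neurons. A RIP with a control antibody was not analysed here, so binding is read only relative to Input. The methods describe a treatment of Input RNA with DNase, which removes DNA, and mention none for the RIP RNA. The effect of this difference was not tested. In bulk RNA of this kind, fewer cells of a type and less RNA per cell cannot be told apart.

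Libraries held between 6020072 and 38909592 counts, the smallest in the YTHDF2 RIP and the largest in the YTHDF1 RIP. Levels are given as normalized CPM, in which counts are set relative to the library size after TMM scaling, with factors from 0.702 to 1.36. The 8 neuronal markers were above 0 in every library, with summed levels of 4054, 3168 and 2624 CPM in Input. Their sums were 4188, 5986 and 7169 CPM with YTHDF1, 2539.5, 1734 and 2735 CPM with YTHDF2, and 5267, 3824 and 2765 CPM with YTHDF3. Astrocyte markers varied among replicates, with summed levels of 296, 1668 and 2737 CPM in Input, 379, 1253 and 847 CPM with YTHDF1, 762, 1380 and 1241 CPM with YTHDF2, and 205, 926 and 1606 CPM with YTHDF3. Markers of the oligodendrocyte lineage varied too, at 56.5, 370 and 324 CPM in Input, 1379, 310 and 459 CPM with YTHDF1, 456, 338 and 388 CPM with YTHDF2, and 55.8, 507 and 434 CPM with YTHDF3. Of the sum in YTHDF1 replicate 1, Olig1 alone made up 1194 CPM. Summed microglial markers in Input were between 2.49 and 6.21 CPM, and endothelial markers between 0.837 and 2.12 CPM.

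The family occupied bases 36930184 to 37841873 of mouse chromosome 18 (GRCm38), with every gene on the plus strand. Alpha genes lay between 36930184 and 37187661, beta genes between 37264938 and 37524479, and gamma genes between 37661793 and 37841873. In the annotation, alpha genes shared 3 exons of 2860 bases, which made up 38.0% to 54.9% of their exonic length, and gamma genes shared 3 exons of 2116 bases, or 27.8% to 45.9%. All 21 beta members were a single exon, with no exon shared by the cluster. Pcdhb21 and Pcdhb22 overlap, however, and reads aligning to several similar members were counted at each.

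The beta cluster showed the strongest response of the family, and it was to YTHDF1. Summed over the 21 beta members, the level was 136, 143 and 130 CPM in Input and 2036, 3158 and 1727 CPM with YTHDF1. With YTHDF2 the sum was 274, 241 and 248 CPM, and with YTHDF3 it was 276, 275 and 242 CPM. The YTHDF1 libraries therefore stood above the other 9 without overlap, and the same held for each of the 21 beta genes. It also held for 20 of 22 gamma genes, 0 of 14 alpha genes and 12.1% of all genes tested. As a share of all counts, the beta genes took 0.0136% of Input (mean, n = 3), 0.173% with YTHDF1, 0.0267% with YTHDF2 and 0.0331% with YTHDF3.

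**Figure D1:**
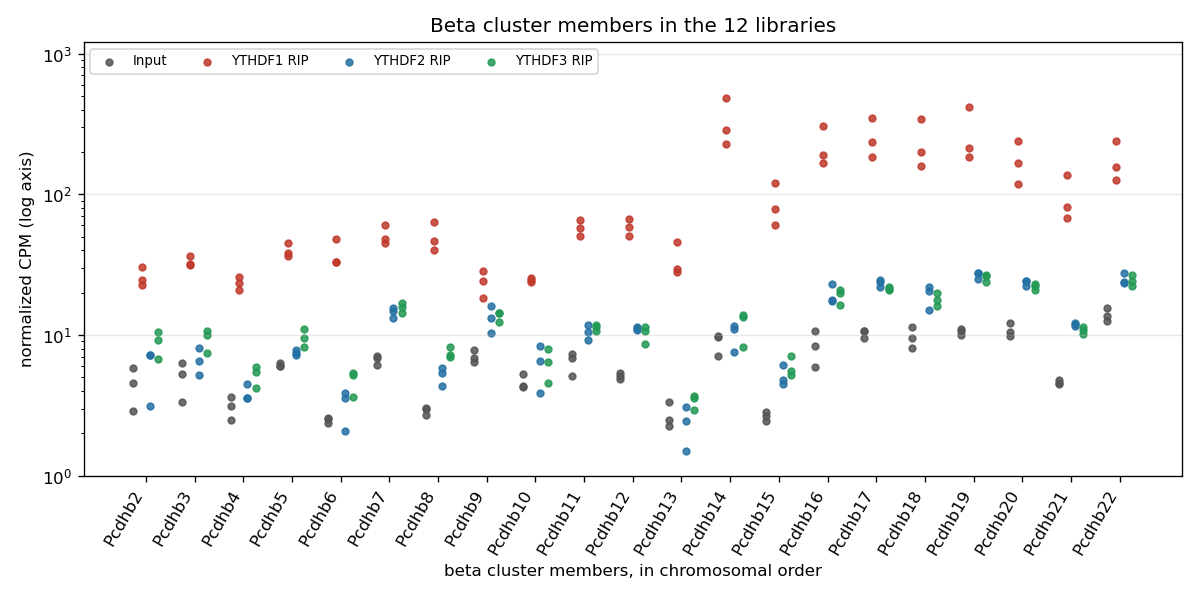
Normalized CPM of each beta cluster member on a log axis, in the order of the genes on the chromosome, with 1 point per library and a colour per group (n = 3 each). In all 21 members the 3 YTHDF1 RIP points lie above the 9 points of Input, YTHDF2 RIP and YTHDF3 RIP.

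All 57 members were higher in the YTHDF1 RIP than in Input by edgeR's quasi-likelihood test (at least 25% above Input, with a p adjusted after Benjamini and Hochberg no greater than 0.05), and none were lower. Of the 17126 genes tested, 27.2% were called higher in this comparison and 25.8% lower. Replicates of all 57 lay wholly above those of Input, against 27.9% of all genes. The alpha and gamma values share reads, as described below. Reads aligning to several similar beta members were also counted at each, so the 57 are not separate measurements. The alpha and gamma calls also depended on the fit. With the replicate number as a block in the fit of YTHDF1 and Input alone, all beta members kept the call. In that fit no gamma member and few alpha members did, although the same-numbered libraries did not all correlate. The sizes of the changes set the clusters apart. The median log2 fold change was 3.67 over the beta members (1.74 to 5.23), 1.20 over the alpha members (1.17 to 1.46) and 1.07 over the gamma members (0.92 to 1.17), beside 0.02 over all genes tested and 0.12 over protein-coding genes. The adjusted p ran from 8.59e-07 to 0.000115 in beta, from 0.000857 to 0.00269 in alpha and from 0.00251 to 0.0147 in gamma. Direction was kept by every cluster median under each scaling tried, including library size alone, which moved the median of all genes to -0.38 and that of the beta members to 3.25.

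Pcdhb14 had the largest change of the family. Its level was 9.82, 9.66 and 7.07 CPM in Input and 285, 486 and 229 CPM with YTHDF1, from raw counts of 129, 132 and 66 and of 2476, 6808 and 6304. The log2 fold change was 5.23 ± 0.36 (SE), or 37.5-fold, with an adjusted p of 2.55e-06 by edgeR. Ranked by fold change, Pcdhb14 was number 44 of 17126 genes in the YTHDF1 RIP. In the other RIPs the same gene stayed close to Input, at 11.6, 7.61 and 11.1 CPM with YTHDF2 (log2 0.19, adjusted p 0.678) and 13.9, 13.4 and 8.17 CPM with YTHDF3 (log2 0.41, adjusted p 0.320). Both groups overlapped with Input, although each YTHDF3 library was above the Input library of the same number. With the replicate number as a block in the fit of YTHDF3 and Input alone, Pcdhb14 was called higher with YTHDF3, as given below.

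Pcdhb15, its neighbour, was at 2.66, 2.86 and 2.46 CPM in Input and at 79.0, 121 and 60.7 CPM with YTHDF1, a log2 fold change of 5.02 ± 0.29 (SE). In the fit of all libraries it was, unlike Pcdhb14, also called in the other RIPs, at 4.79, 6.12 and 4.47 CPM with YTHDF2 (log2 0.94, adjusted p 0.0218) and 7.04, 5.22 and 5.56 CPM with YTHDF3 (log2 1.15, adjusted p 0.00493). All 3 RIPs lay above Input without overlap, and the YTHDF1 RIP lay above the other two.

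Pcdhb9 had the smallest change of the beta cluster in the YTHDF1 RIP. It was at 7.84, 6.88 and 6.43 CPM in Input, 28.5, 18.2 and 24.1 CPM with YTHDF1, 16.0, 10.3 and 13.3 CPM with YTHDF2, and 14.2, 14.4 and 12.4 CPM with YTHDF3. The log2 fold change was 1.74 ± 0.22 (SE) with YTHDF1, 0.90 ± 0.22 with YTHDF2 and 0.95 ± 0.21 with YTHDF3, all 3 called. Among the named beta genes it had the smallest gap between the YTHDF1 RIP and the other RIPs.

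Across the beta cluster 7 members were among the 100 genes with the highest fold change in the YTHDF1 RIP, and the median rank of the 21 was 164. The best rank of any member was 943 with YTHDF2, held by Pcdhb21, and 376 with YTHDF3, held by Pcdhb8. The YTHDF1 replicates differed among themselves: 17 of the 21 beta members were highest in replicate 2, whereas all 14 alpha and all 22 gamma members were highest in replicate 3. Without YTHDF1 replicate 2 the beta median was 3.34, and all 21 beta members were called higher with YTHDF1 under every alternative tried.

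**Figure D2:**
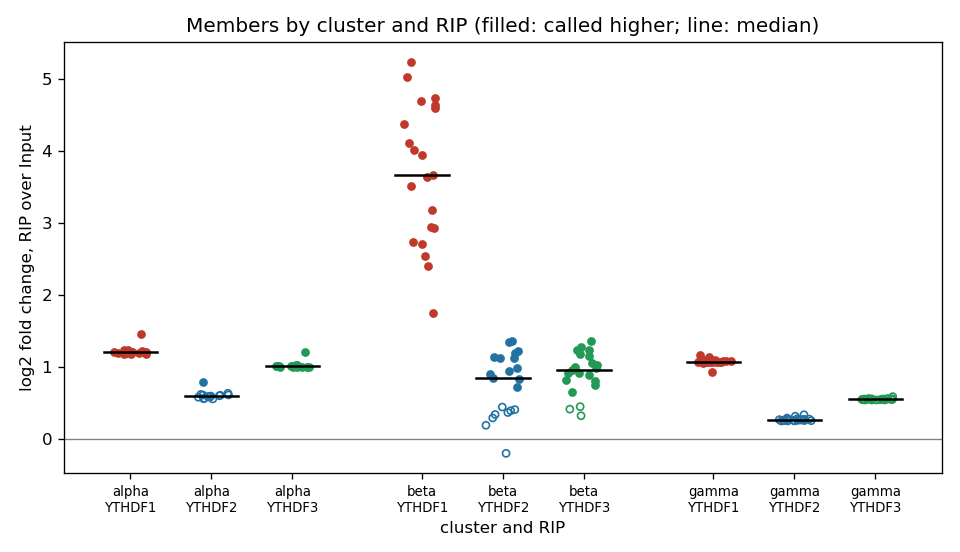
Log2 fold change of each member over Input, by cluster (14 alpha, 21 beta, 22 gamma) and RIP, with filled points called higher and a line at the median. The beta members with YTHDF1 reach from 1.74 to 5.23, while the highest cluster median in the other RIPs is 1.00, for alpha with YTHDF3.

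In the YTHDF2 RIP 14 of the 57 members were called higher and none lower, against 15.7% of all genes called higher and 19% lower. They were 13 beta genes and Pcdhac2. The median log2 fold change was 0.84 in beta, 0.59 in alpha and 0.26 in gamma, beside 0.02 over all genes. Replicates of 28 members lay wholly above Input (25.3% of all genes), which were all 14 alpha members and 14 of the beta members. Of the alpha members 13 had an unadjusted p under 0.05 but 1 passed the adjustment, and no gamma member reached an unadjusted p under 0.05. This count rested in part on single libraries: it was 9 without YTHDF2 replicate 1 and 21 without YTHDF1 replicate 3. It was 27 with library size alone and 8 without a filter on low counts.

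The named beta genes with the largest YTHDF2 response were Pcdhb21 and Pcdhb19. Pcdhb21 rose from 4.49, 4.54 and 4.82 CPM in Input to 12.1, 11.5 and 11.96 CPM with YTHDF2, a log2 fold change of 1.36 ± 0.24 (SE, adjusted p 0.00166). It was at 81.3, 136 and 67.8 CPM with YTHDF1 and at 10.2, 11.5 and 10.9 CPM with YTHDF3. Pcdhb19 rose from 10.05, 10.6 and 11.03 CPM to 27.5, 27.8 and 25.1 CPM with YTHDF2 (log2 1.34), 23.8, 26.1 and 26.6 CPM with YTHDF3 (log2 1.27), and 214, 419 and 183 CPM with YTHDF1 (log2 4.69). In both genes the YTHDF2 and YTHDF3 libraries lay between Input and the YTHDF1 RIP, overlapping neither.

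Pcdhb13 was at the other end. Its level was 3.35, 2.49 and 2.25 CPM in Input, 3.06, 1.49 and 2.46 CPM with YTHDF2 and 3.54, 3.66 and 2.94 CPM with YTHDF3. These groups overlapped with Input, with log2 values of -0.20 (adjusted p 0.638) and 0.32 (adjusted p 0.401). In the YTHDF1 RIP, by contrast, it was at 29.3, 46.0 and 28.1 CPM, a log2 fold change of 3.67 ± 0.30 (SE). Pcdhb13 and Pcdhb14 are adjacent, and both were called with YTHDF1 and with neither of the other proteins, as was Pcdhb10. For YTHDF3 this depended on the fit: with the replicate block in the fit of YTHDF3 and Input alone, Pcdhb14 (log2 0.46, adjusted p 0.00293) and Pcdhb10 (log2 0.50, adjusted p 0.0118) were called higher, and Pcdhb13 was not (log2 0.38, adjusted p 0.111). The other beta members not called with YTHDF2 were Pcdhb2, Pcdhb3, Pcdhb4, Pcdhb5 and Pcdhb6.

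In the YTHDF3 RIP 32 members were called higher and none lower, where 16.4% of all genes were called higher and 23% lower. They were all 14 alpha members and 18 beta members, the beta exceptions being Pcdhb10, Pcdhb13 and Pcdhb14. The median log2 fold change was 1.00 in alpha, 0.95 in beta and 0.55 in gamma, beside 0.05 over all genes. No gamma member was called, although 20 of 22 had an unadjusted p under 0.05 and 21 lay wholly above Input. Their adjusted p ran from 0.0767 to 0.142. In all, 53 members did not overlap with Input, against 26.6% of all genes. The gamma calls depended on the fit: 19 gamma members were called by DESeq2, 21 when the YTHDF3 RIP and Input were fitted alone, and 20 without YTHDF1 replicate 2, which brought the family's count to 51, 53 and 52. The YTHDF3 replicates paired with those of Input, and with the replicate number as a block the count was 31 in the fit of all libraries and 56 in the fit of those groups alone.

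Pcdhb8 had the largest YTHDF3 response of the family. It was at 3.04, 2.71 and 3.00 CPM in Input, 8.28, 7.18 and 6.94 CPM with YTHDF3 and 5.85, 4.33 and 5.36 CPM with YTHDF2. The log2 fold change was 1.36 ± 0.21 (SE, adjusted p 0.000456) with YTHDF3 and 0.83 ± 0.22 (adjusted p 0.0130) with YTHDF2. With YTHDF1 it reached 40.3, 63.9 and 46.5 CPM, a log2 fold change of 4.10. The 4 groups did not overlap, in the order Input, YTHDF2, YTHDF3 and YTHDF1.

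When calls in the 3 RIPs are set side by side, 13 beta members and 1 alpha member were called in all 3, and no gamma member was, beside 8.45% of all genes tested. The 3 comparisons share the same Input libraries, so these calls are not independent.

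The RIPs were then compared directly. At 2-fold or more, 20 members were higher with YTHDF1 than with YTHDF2, all of them beta, where 11.4% of all genes were called in that direction and 6.1% in the other. Replicates of 54 members lay wholly above those of YTHDF2 (20.4% of all genes). The median log2 difference was 2.88 in beta, 0.81 in gamma and 0.61 in alpha, beside 0.03 over all genes. Of the gamma members 21 of 22 had an adjusted p of at most 0.05 at under 2-fold, and without YTHDF2 replicate 3, 21 gamma members were past 2-fold and the count became 41. Against YTHDF3, 20 members were higher with YTHDF1, again all beta (10.8% of all genes, with 3.63% in the other direction), and 41 members did not overlap (20.9% of all genes). The median log2 difference was 2.83 in beta, 0.52 in gamma and 0.19 in alpha, beside 0.19 over all genes.

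Pcdhb14 had the largest difference in both, a log2 of 5.04 ± 0.36 (SE) over YTHDF2 and 4.82 ± 0.35 over YTHDF3. Pcdhb9 was the beta member that stayed under 2-fold, at 0.84 ± 0.21 (adjusted p 0.0132) over YTHDF2 and 0.79 ± 0.21 (adjusted p 0.0206) over YTHDF3. Between YTHDF2 and YTHDF3 no member was called by edgeR or by DESeq2, where 3.95% of all genes were called higher with YTHDF2 and 1.16% lower. The replicates of 2 members lay wholly above (21.8% of all genes) and those of 2 wholly below (14% of all genes). Pcdhb8 was the 1 member at an unadjusted p under 0.05, with a log2 of -0.52 ± 0.21 (SE) for YTHDF2 over YTHDF3.

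The beta genes also differed by their place in the cluster, a pattern described after the values were seen. The first 12, from Pcdhb2 to Pcdhb13, had a median log2 fold change of 2.93 with YTHDF1 (1.74 to 4.10), and the last 9, from Pcdhb14 to Pcdhb22, one of 4.64 (3.64 to 5.23). The median level rose from 4.80 CPM in Input to 36.3 CPM with YTHDF1 in the first set, and from 9.69 to 221 CPM in the second. With YTHDF2 the medians were 0.42 and 1.13, and with YTHDF3 0.91 and 1.05. The median exonic length was 5041 bases in the second set (2801 to 8695) and 3518 in the first (2813 to 4419), and the median GC content was 43.0% and 47.3%. The sets overlapped in both: Pcdhb15, with the second largest YTHDF1 change, was the shortest of the 21 members, at 2801 bases. The annotated 3′ UTR had 6120 bases in Pcdhb14 and 266 in Pcdhb15, while the coding sequence was 2316 to 2487 bases throughout.

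**Figure D3:**
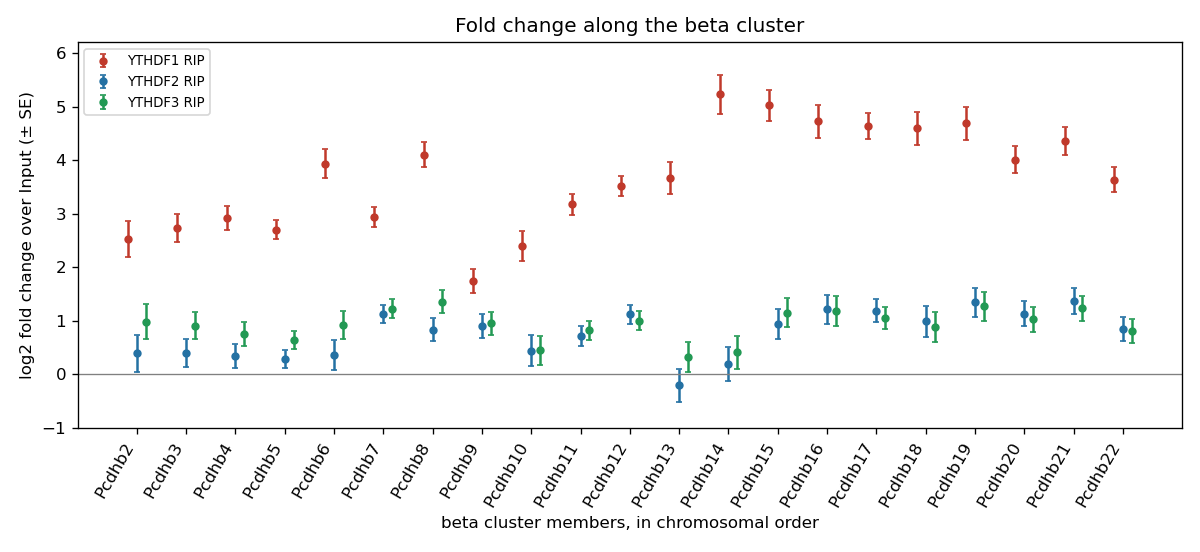
Log2 fold change over Input with its SE for each beta member in the order of the genes on the chromosome, with a colour per RIP. With YTHDF1, every member from Pcdhb14 on is at or above 3.64, whereas the members before it range from 1.74 to 4.10.

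Over the 21 beta genes, rank correlations (Spearman) of the YTHDF1 log2 fold change were 0.657 with position, 0.534 with exonic length and -0.639 with GC content. They were -0.196 with the Input level per kilobase of exon and -0.143 with the density of the motif GGACT, a common sequence context of m6A. With YTHDF2 they were 0.626, 0.188, -0.295, 0.447 and -0.117, and with YTHDF3 0.231, -0.0623, -0.0623, 0.0792 and -0.0130. The genes share libraries and arose by duplication, and the measures move together: position and length correlated at 0.523, position and GC content at -0.587, and length and GC content at -0.932. Their separate parts in the result were not tested. Input is also the denominator of each fold change, so the correlations with its level are partly built in. With the trend of fold change on length across all genes removed, the beta median with YTHDF1 was 3.69 and Pcdhb14 stood at 4.52. In that fit the small Pcdhb14 values in the other RIPs changed sign, to -0.17 with YTHDF2 and -0.035 with YTHDF3.

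GGACT, searched on the sense strand of the transcripts, was present in all 57 members and in 92.7% of the 13418 protein-coding genes tested that had a transcript sequence. Its median density was 1.34 per kb in beta, 1.03 per kb in gamma and 0.561 per kb in alpha, beside 1.04 per kb over those protein-coding genes. A match to these letters is not a mapped m6A site.

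Per kilobase of exon, the beta genes were low in Input, from 0.660 CPM per kb in Pcdhb6 to 3.04 CPM per kb in Pcdhb20 (both picked as the ends of the range), and Pcdhb14 was at 1.02 ± 0.178 (SD, n = 3). In the YTHDF1 RIP Pcdhb14 was at 38.3 ± 15.5 CPM per kb and Pcdhb9 at 7.73 ± 1.69, although Pcdhb9 was the higher of the pair in Input, at 2.31 ± 0.236.

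Of 15 tested genes that lie among the members, some of which share exons with them, 13 were called higher with YTHDF1, beside 27.2% of all genes. Gm20162 and Gm18529, processed pseudogenes on the plus strand inside the beta cluster, were among them. Gm37013, Gm38666, Gm37388 and Gm38182 lie wholly in exons of members on the same strand, so their reads are counted for members too. Genes with few Input counts, such as Gm20162, Gm18529 and Gm19035, passed the filter on low counts largely through their YTHDF1 libraries. The count of 13 is therefore not separate evidence. Gm20162 was at 0.381, 0.146 and 0.214 CPM in Input and 7.49, 8.99 and 4.46 CPM with YTHDF1, a log2 fold change of 4.76 ± 0.64 (SE) from raw counts of 5, 2 and 2 in Input. Gm18529 had raw counts of 3, 0 and 1 in Input and 22, 64 and 131 with YTHDF1. In the alpha cluster, the pseudogene Gm19035 had counts of 0, 1 and 1 in Input and 9, 101 and 22 with YTHDF1, and the pseudogene Gm36858 was at 2.13, 1.54 and 1.61 CPM in Input and 8.53, 9.56 and 6.74 CPM with YTHDF1 (log2 2.22 ± 0.32). Taf7, a general transcription factor gene on the minus strand between the beta and gamma clusters, was at 15.6, 15.2 and 12.7 CPM in Input and 15.0, 20.9 and 14.6 CPM with YTHDF1, which overlapped (log2 0.21, adjusted p 0.367). Gm37446, an antisense gene with 46.6% of its exonic bases opposite Pcdhb12, had raw counts of 1, 1 and 0 in Input and 1, 4 and 17 with YTHDF1 and was too low to test. Gm26672, an antisense gene in the gamma cluster, was called higher with YTHDF1 (log2 1.92 ± 0.30).

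Alpha and gamma genes could not be read one by one in the same way, because a fragment in a shared exon was counted for every gene that carries the exon. The lowest member of a cluster sets an upper limit on those shared reads. That limit was 88.7% to 94.9% of the median member's count in the alpha cluster and 94.6% to 96.8% in the gamma cluster, depending on the library. How much of this limit is reached cannot be read from the counts. Since reads in the shared exons are common to all, the 14 alpha values are not separate measurements, nor are the 22 gamma values, and their counts of calls are not counts of separate genes. Shared levels followed the replicates together. All 22 gamma members were lowest in Input replicate 1 and in YTHDF3 replicate 1, where all 14 alpha members were highest and where astrocyte and oligodendrocyte lineage markers were lowest in their groups. With YTHDF1 and YTHDF2 the astrocyte markers were also lowest in replicate 1, but all 22 gamma members were lowest in replicate 2, and all 14 alpha members were highest in replicate 3. The part of cell composition in these differences was not tested.

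Pcdhac2, the last variable exon of the alpha cluster, was the alpha member with the highest level and the largest change in every RIP. It was at 207, 135 and 153 CPM in Input, 451, 323 and 585 CPM with YTHDF1, 253, 264 and 338 CPM with YTHDF2, and 470, 360 and 308 CPM with YTHDF3. All RIP libraries lay above the Input libraries. The log2 fold change was 1.46 ± 0.27 (SE, adjusted p 0.000857), 0.79 ± 0.26 (adjusted p 0.0368) and 1.20 ± 0.26 (adjusted p 0.00393). Its excess over the lowest alpha member, which bears more directly on its own exon, was 69.9, 47.1 and 49.6 CPM in Input, 246, 111 and 255 CPM with YTHDF1, 112, 109 and 153 CPM with YTHDF2, and 194, 160 and 129 CPM with YTHDF3. The groups again did not overlap with Input, and the log2 ratios of the means were 1.88, 1.17 and 1.53. Pcdhac1, the other C-type alpha gene, was itself the lowest member in several libraries, so its count of 139, 88.3 and 103 CPM in Input was nearly all within the limit for shared reads.

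Pcdhgc3 had the highest level of the gamma cluster and the smallest YTHDF1 change. It was at 251, 383 and 423 CPM in Input, 616, 535 and 853 CPM with YTHDF1, 386, 358 and 546 CPM with YTHDF2 and 394, 572 and 570 CPM with YTHDF3. Only the YTHDF1 libraries lay wholly above Input, with a log2 fold change of 0.92 ± 0.28 (SE, adjusted p 0.0147). Its excess over the lowest gamma member was 46.3, 113 and 142 CPM in Input and 119, 123 and 183 CPM with YTHDF1, which overlapped, with log2 ratios of means of 0.49, 0.37 and 0.54 for YTHDF1, YTHDF2 and YTHDF3. Whole counts and excess thus gave different pictures of Pcdhgc3.

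For Pcdhgc4 the excess moved more than the whole count. Its excess was 19.0, 21.6 and 18.4 CPM in Input, 83.0, 37.7 and 80.8 CPM with YTHDF1, 45.9, 32.4 and 48.6 CPM with YTHDF2, and 41.1, 45.4 and 38.3 CPM with YTHDF3. Every RIP library lay above Input, and the log2 ratios were 1.77, 1.104 and 1.08, where the whole counts gave 1.13, 0.33 and 0.58. Pcdhgc5 had a log2 ratio of 2.31 with YTHDF1, but its excess of 64.2, 14.8 and 131 CPM overlapped with 13.9, 18.3 and 10.1 CPM in Input. Pcdhga11, an A-type gamma gene, went from 21.9, 23.0 and 18.9 CPM to 51.3, 55.0 and 53.4 CPM with YTHDF1 without overlap, and overlapped with Input in YTHDF2 at 24.7, 20.5 and 27.2 CPM.

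**Figure D4:**
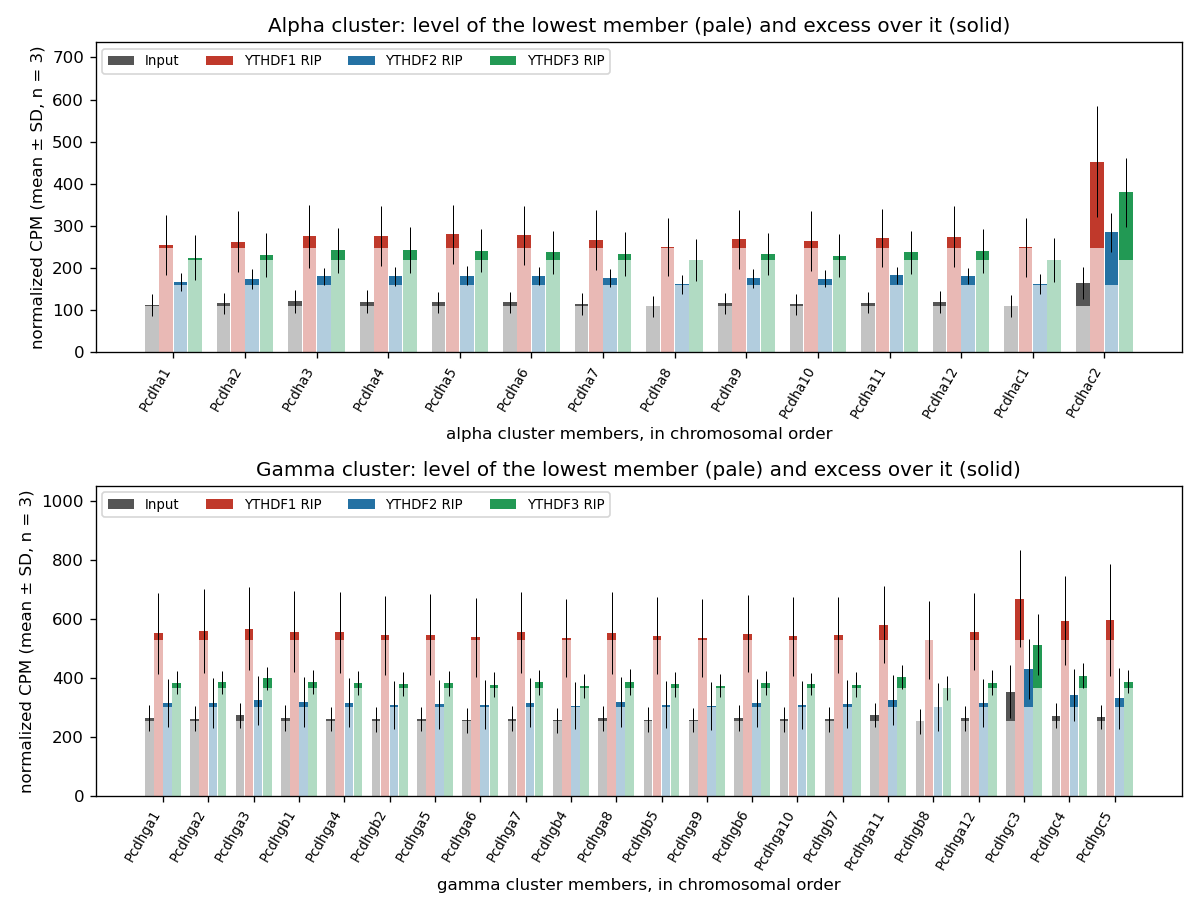
Mean normalized CPM of the alpha and gamma members in each group (bars from 0, SD over n = 3), split into the level of the lowest member, in pale colour, and the excess over it, in solid colour. The pale part makes up most of every bar, and the largest solid parts belong to Pcdhac2 and Pcdhgc3.

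Over the members with an excess of at least 50 counts in every Input library, a limit chosen after the values were seen, the median log2 ratio for the alpha cluster (n = 11) was 1.46 with YTHDF1, 1.14 with YTHDF2 and 1.15 with YTHDF3. All 11 lay wholly above Input in each RIP. For the gamma cluster (n = 18) it was 1.30, 0.51 and 0.79, with 16, 7 and 15 members wholly above Input. By whole counts, 27.9%, 25.3% and 26.6% of all genes tested lay wholly above Input. The excesses of a cluster are taken over the same lowest count, so they are not separate measurements. Among the alpha members, Pcdha5 had an excess of 9.06, 8.78 and 10.6 CPM in Input and 31.4, 30.1 and 31.9 CPM with YTHDF1. Per kilobase, the excess in Input was largest in Pcdhgc3, at 29.8 CPM per kb, and Pcdhac2, at 18.3 CPM per kb.

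Related gene groups are given for comparison. Non-clustered protocadherins, which are adhesion genes outside the clusters, were called higher for 10 of 11 tested with YTHDF1 (90.9%), 8 with YTHDF2 (72.7%) and 10 with YTHDF3 (90.9%), and none were lower. The shares over all genes were 27.2%, 15.7% and 16.4%. Their median log2 fold changes were 2.13, 0.98 and 1.21, and Pcdh19, which forms adhesion complexes with N-cadherin, had the largest change with YTHDF1 at 3.89 ± 0.30 (SE). Classical cadherins were called higher by edgeR for 6 of 17 tested with YTHDF1 (35.3%, beside 27.2% of all genes), for 0 with YTHDF2 (1 at an unadjusted p under 0.05, beside 15.7% of all genes called) and for 1 with YTHDF3 (5.88%, beside 16.4% of all genes), with medians of 0.67, -0.10 and 0.50. Cdh12 had the largest change among them, at 4.34 ± 0.55 with YTHDF1.

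Over all genes tested, 27.2%, 15.7% and 16.4% were called higher with YTHDF1, YTHDF2 and YTHDF3, and 25.8%, 19% and 23% lower. Of 15 genes that act in protocadherin promoter choice, 10, 6 and 8 were called higher (66.7%, 40.0% and 53.3%) and none lower, with medians of 1.20, 0.51 and 0.85. They included Nipbl, the cohesin loader, at 1.999 ± 0.17 with YTHDF1, and Dnmt3b, a DNA methyltransferase, at 2.17 ± 0.49 with YTHDF2. Dnmt3b was low, at 0.685, 0.805 and 1.18 CPM in Input and 4.39, 5.52 and 2.12 CPM with YTHDF2. Of 17 binding partners and proteases, 9, 3 and 5 were called higher (52.9%, 17.6% and 29.4%) and 3, 4 and 2 lower. Their medians were 0.69, 0.14 and 0.43. Marcks, an actin and membrane regulator, stood at 2.36 ± 0.46 with YTHDF1, and Brk1, a subunit of the WAVE actin complex, at -1.55 ± 0.19. Single-exon protein-coding genes outside the family, of which 428 were tested, were called higher for 160, 75 and 68 (37.4%, 17.5% and 15.9%) and lower for 84, 69 and 126, with medians of 0.43, 0.21 and 0.01, beside 3.67, 0.84 and 0.95 in the beta members. The single-exon shares called higher with YTHDF2 and YTHDF3 were near those over all genes, as was the partners' share with YTHDF2.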

How the data were processed

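RNA of 12 libraries in 4 groups (Input and RIPs of YTHDF1, YTHDF2 and YTHDF3, 3 replicates each, grouped by the labels) was measured with a stranded total-RNA kit with unique molecular identifiers. The authors trimmed reads with cutadapt 3.4, aligned them to GRCm38 with STAR 2.7.7a, removed duplicates with UMI-tools 1.1.1 and counted with featureCounts 2.0.1. The deposited values used are raw counts per gene. Per the file headers, a fragment overlapping several genes was counted for each, as was every alignment of a multi-mapping fragment, with strand taken into account. The authors also deposited DESeq2 tables of means, fold changes and p-values, from which only the gene lists were taken, to find the members.

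Genes averaging 10 or more normalized counts were kept (17126), and 1 quasi-likelihood model was fitted to all 12 libraries with edgeR 4.0.16 in R 4.3.3, with TMM scaling and Benjamini-Hochberg adjustment over all genes. A call needed an adjusted p of at most 0.05 and a change of at least 25% against Input, or of at least 2-fold between RIPs. The SE is the log2 fold change divided by the square root of F. Depth was 6020072 to 38909592 counts per library, and the median SE over the members was 0.246 with YTHDF1 and 0.244 with YTHDF2 and with YTHDF3. The procedure was tested on simulated data. Alternatives were DESeq2 1.42.0, other scalings and filters, a replicate block, fits of the groups compared alone, removal of the length trend, subtraction of the lowest count of a cluster, and leaving out each library.

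Replicate numbers were taken from the labels. Deviations from the group means correlated between YTHDF3 and Input libraries of the same number at 0.829, 0.528 and 0.804, which meets the standard set for pairing, while the other comparisons did not meet it. The reported fit has no block, and the YTHDF3 counts with the block are given beside it. Replicates come from separate cultures only as far as the methods state, and p-values measure the spread between these libraries.

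Named members were the C-type genes, in each cluster the gene with the highest mean level and, per RIP, the 2 highest and the 1 lowest fold changes, plus the largest called difference between RIPs, and from other lists at most the 2 largest changes each way. Genes named as not called, or at the ends of a range, were added after their values were seen. The members and gene lists were chosen with earlier results of these data known. No sequence of the family is reported here.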

Additional observations from a re-analysis of the deposited data

How the results depend on the processing

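The 57 members called higher with YTHDF1 were 56 or 57 under all alternatives except 54 and 55 with the length trend removed, without and with the replicate block, 53 with counts above the lowest of the cluster, and 24 with the replicate block when the YTHDF1 RIP and Input were fitted alone (the 21 beta members and 3 alpha members). The 14 called with YTHDF2 were 27 with library size alone, 8 without a filter on low counts and 29 with counts above the lowest of the cluster. The 32 called with YTHDF3 were 51 with DESeq2, 55 with library size alone, 53 when only the groups compared were fitted and 56 when the replicate block was added to that fit. Leaving out 1 library gave 56 to 57 with YTHDF1, 9 to 21 with YTHDF2, 29 to 52 with YTHDF3, 20 to 41 for YTHDF1 over YTHDF2 and 18 to 20 for YTHDF1 over YTHDF3. The count between YTHDF2 and YTHDF3 and all counts of lower members stayed at 0. The causes were not tested. In all, 205 of 216 recomputed counts stayed within 1.5 times of the value reported, a total that includes the counts that stayed at 0.

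The replicate block in the fit of all libraries gave 57, 14 and 31 members with YTHDF1, YTHDF2 and YTHDF3, and in the fits of 2 groups the YTHDF2 count with the block was 10. Same-numbered YTHDF1 and Input libraries correlated at 0.0907, -0.267 and -0.322 and YTHDF2 and Input libraries at 0.178, -0.323 and -0.313, and not every sample correlated best with its own number.

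Of 1362 recomputed values of named members, 1262 kept direction and call, 51 gained a call, 42 lost one and 7 changed sign, all 7 in values that were not called. With the length trend removed, without and with the replicate block, Pcdhgc5 with YTHDF2 was -0.0079 and -0.038, Pcdhb14 with YTHDF2 was -0.17 and -0.12, and Pcdhb14 with YTHDF3 was -0.035 and -0.046. Without YTHDF2 replicate 2, Pcdhb13 with YTHDF2 was 0.022, and leaving out 1 library gave it -0.43 to 0.022. Scaling moved the median log2 of all genes with YTHDF1 from 0.02 to -0.38 with library size alone, -0.22 with TMM over protein-coding genes and 0.35 without a filter, and with YTHDF3 from 0.05 to 0.38 with library size alone.

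Depth limits the beta genes in Input, where Pcdhb14 had 66 to 132 counts per library. Reads in shared exons limit the alpha and gamma genes, and multi-mapping reads the similar beta genes.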
